A study of Mus musculus with 5 samples.

Results

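The regions described here are stretches of the mouse genome where RNA polymerase II peaks were listed in kidney and in lung but in none of brain, liver and spleen. They were chosen by the deposited peak lists: every peak position was widened by 250 bp to each side, windows that overlapped were merged over the 5 tissues, and merged regions that held a kidney and a lung position and no other were kept. This gave 6571 kidney-lung regions of 186413 regions in all, or 3.52%. Because the peaks were called on the same reads that are counted below, a higher level in kidney and lung than in the other tissues follows from the choice and is given as a description.

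The study mapped RNA polymerase II by chromatin immunoprecipitation and sequencing in kidney, lung, brain, liver and spleen of adult FVB mice. About 1 g of freshly dissected tissue was cross-linked for each sample, and the antibody, against RNA polymerase II, came from Abcam. All 5 samples share strain, age class and antibody, and no treatment or genotype is named. Each tissue is represented by 1 library, whether animals were pooled is not stated, and no input library was used here, so no difference below has a replicate check and none was tested. Intervals are 95% exact binomial ones and cover counting error only, since without molecular identifiers reads cannot be counted as separate molecules.

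RNA polymerase II transcribes protein-coding genes and many noncoding RNAs. In chromatin immunoprecipitation it usually gathers in a sharp peak near the start of an active gene, where it often pauses, and spreads at a lower level over the body of a strongly transcribed gene and past its 3′ end. Kidney and lung are both rich in epithelium, capillary endothelium and connective tissue, and whole-organ chromatin mixes the cells of each.

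Positions come from the deposited lists, counted from 1; they are taken to fit build mm9, which no label names. An annotation or genome of that build was not used here, so regions carry positions and no gene names, and marker genes of the labelled tissues were not analysed here. Kidney was sequenced to 13786536 reads and lung to 10846976, against 10292262 for brain, 14964934 for liver and 13283124 for spleen. The share of reads within 250 bp of a library's own peaks was 11.9% in kidney, 12.4% in lung, 14.4% in brain and 11.4% in liver, but 4.57% in spleen. Read counts were normalised by median-of-ratios factors over 8222 regions, 1.09 for kidney, 1.13 for lung, 1.03 for brain, 1.17 for liver and 0.671 for spleen. Spleen's factor from total reads would be 1.06, so any comparison with spleen depends on this choice, and a value scaled by total reads is given beside a count or a named fold where it differs by more than 1.5 times or changes direction.

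Peak lists differed in length, with 81375 positions in kidney and 72971 in lung, against 91712 in brain, 57816 in liver and 31594 in spleen. On these lists kidney and lung only was the most frequent of the 10 patterns with peaks in exactly 2 tissues, before brain and lung with 5709 regions, brain and kidney with 5510 and kidney and liver with 5248, and lung and spleen held 1741. This order was not kept in 1 random draw that thinned every list to 31594 positions. Kidney and lung then held 2395, against 2406 for lung and spleen and 2380 for kidney and liver. Thinning also deletes peaks of other tissues, so regions that had them can enter a pattern, and spleen's list stayed whole. The thinned sets thus differ from the original ones, and the draw does not show how far the order rests on list length. The kidney-lung regions made up 8.96% of the 73308 regions with a kidney peak, 9.94% of the 66118 with a lung peak and 20.3% of the 32413 with both. They had a median width of 641 bp (quartiles 561 and 791 bp, range 501 to 2811 bp) and covered 4.66 Mb. Most of them, 5846 or 89.0%, held 1 kidney and 1 lung position.

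The kidney and lung positions of a region lay close together but seldom coincided. The median distance of the nearest pair was 125 bp (quartiles 55 and 225 bp). In 66 regions the positions were identical, and in 23.6% they were within 50 bp. Where all 5 tissues had a peak, in 8641 regions, the kidney and lung positions were a median of 75 bp apart and within 50 bp in 37.9%. The signed distance, kidney minus lung in genome coordinates, had a median of 0 bp. The strand of transcription was not known, so shifts along it could cancel, and no conclusion on a shift is drawn. The merge caps the distance, and regions near that limit were like those that just missed it. The 357 kidney-lung regions whose positions were more than 400 bp apart had medians of 23 kidney and 19 lung reads, against 8 in brain, 10 in liver and 9 in spleen. Just outside the rule, 198 pairs of a kidney-only and a lung-only region with positions up to 600 bp apart had summed medians of 23.5 kidney and 19 lung reads, against 9 in brain, 11 in liver and 9 in spleen.

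Summed over all kidney-lung regions, reads formed a central rise in the 2 tissues and little rise in the other 3. Around region midpoints the highest normalised density was 32.9 reads per kb in kidney and 24.3 in lung, against 10.0 in brain, 11.3 in liver and 16.2 in spleen. Over the level 2 to 3 kb away, these maxima were 1.78-fold in kidney and 1.83-fold in lung, against 1.17-fold in brain, 1.17-fold in liver and 1.25-fold in spleen. Read starts on the plus strand were densest 150 bp before the midpoint in all 5 libraries. Those on the minus strand were densest 150 bp after it in kidney, lung, brain and liver, and 250 bp after it in spleen. The rise was low beside that of regions with peaks in all 5 tissues, where the maxima were 4.61-fold to 6.03-fold over the level 2 to 3 kb away. It was nearer to that of other patterns of 2 tissues. Regions of kidney and liver only reached 1.85-fold in kidney and 2.06-fold in liver. Those of lung and spleen only reached 2.12-fold in lung and 2.52-fold in spleen.

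**Figure D1:**
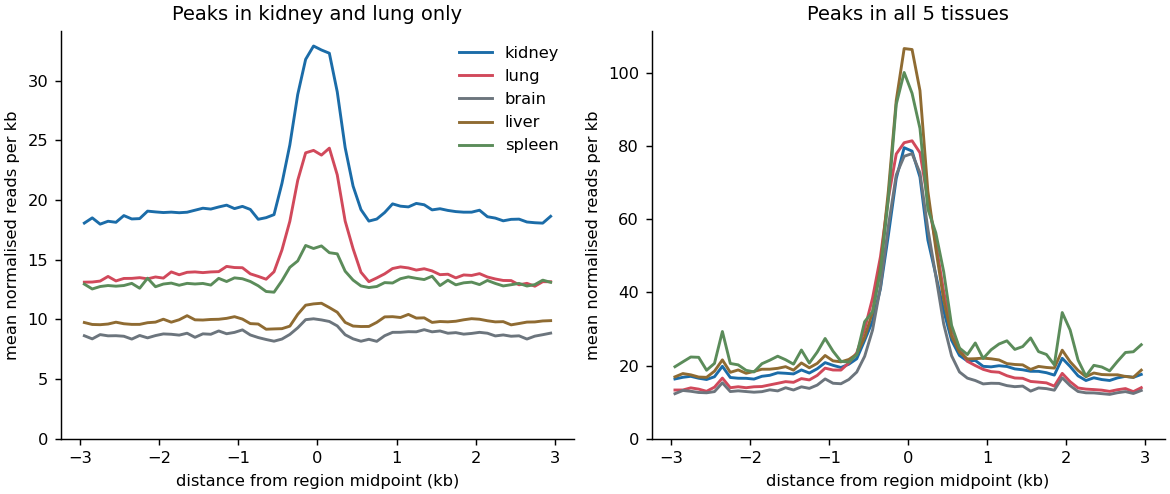
Normalised reads per kb by distance from the region midpoint for each library, in kidney-lung regions (left) and in regions with peaks in all 5 tissues (right, with its own vertical scale). Kidney reached 32.9 and lung 24.3 reads per kb at the centre of the kidney-lung regions, while brain, liver and spleen stayed between 10.0 and 16.2 at their highest.

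Most kidney-lung regions were shallow. Kidney held a median of 19 reads per region (5th and 95th percentiles 11 and 51, range 5 to 310), and lung 16 (9 and 36, range 4 to 221). Brain held a median of 6 reads (2 and 14, range 0 to 78), liver 8 (2 and 17, range 0 to 469) and spleen 7 (2 and 15, range 0 to 85). The ranges of all 5 libraries overlap, and 20 reads were reached by 3201 regions (48.7%) in kidney and 1926 (29.3%) in lung, against 79 in brain, 197 in liver and 61 in spleen. In whole-organ samples, fewer cells of a type and less polymerase per cell cannot be told apart.

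The absence of a listed peak was not an absence of reads. Fewer than 3 reads, the number a count of 0 allows, were found in 744 regions (11.3%) in brain, 426 (6.48%) in liver and 509 (7.75%) in spleen, and in 0 regions in kidney or lung. All 3 other tissues were below 3 reads in 19 regions. After normalisation the medians were 17.4 in kidney, 14.1 in lung, 5.81 in brain, 6.85 in liver and 10.4 in spleen. Scaled by total reads they were 17.2 in kidney, 18.4 in lung, 7.29 in brain, 6.69 in liver and 6.59 in spleen, so the order of kidney and lung and the place of spleen both turn on the scaling. One of the other tissues matched or passed the lower of kidney and lung in 2309 regions (35.1%), or in 702 (10.7%) with total reads. Spleen was the highest of the other tissues in 4130 regions (62.9%), and in 1685 with total reads.

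Each library was then set against its own surroundings, the reads 5 to 50 kb to both sides and outside every region, which needs no scaling between libraries. Over the 6568 kidney-lung regions with enough surroundings, the median density was 3.09-fold over them in kidney (quartiles 2.32 and 4.22) and 3.34-fold in lung (2.53 and 4.46). The other tissues were also above their surroundings, at 1.75-fold in brain, 1.57-fold in liver and 1.52-fold in spleen. At least 2-fold was reached by 5616 regions (85.5%) in kidney, against 51.7% of all regions, and by 5919 (90.1%) in lung, against 52.1% of all. It was reached by 2598 (39.6%) in brain, 2025 (30.8%) in liver and 1776 (27.0%) in spleen, where the shares of all regions were 57.7%, 43.9% and 36.6%. All 3 tissues without a peak were at least 2-fold over their surroundings in 420 kidney-lung regions (6.39%), and all 3 were at or below them in 112 (1.70%). No share of all regions is at hand for these joint counts, so nothing is read from them.

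The height over the surroundings was set beside 2 other patterns of 2 tissues and beside regions shared by all. In regions with peaks in kidney and liver only, the medians were 3.25-fold in kidney and 3.64-fold in liver, and in those of lung and spleen only they were 3.49-fold in lung and 3.45-fold in spleen. Tissues without a peak were above their surroundings in these patterns too. They stood at 1.54-fold in brain, 1.65-fold in lung and 1.38-fold in spleen for kidney and liver only. For lung and spleen only they stood at 1.61-fold in brain, 1.71-fold in kidney and 1.53-fold in liver. In regions with peaks in all 5 tissues the medians were 7.02-fold in kidney and 10.4-fold in lung.

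**Figure D2:**
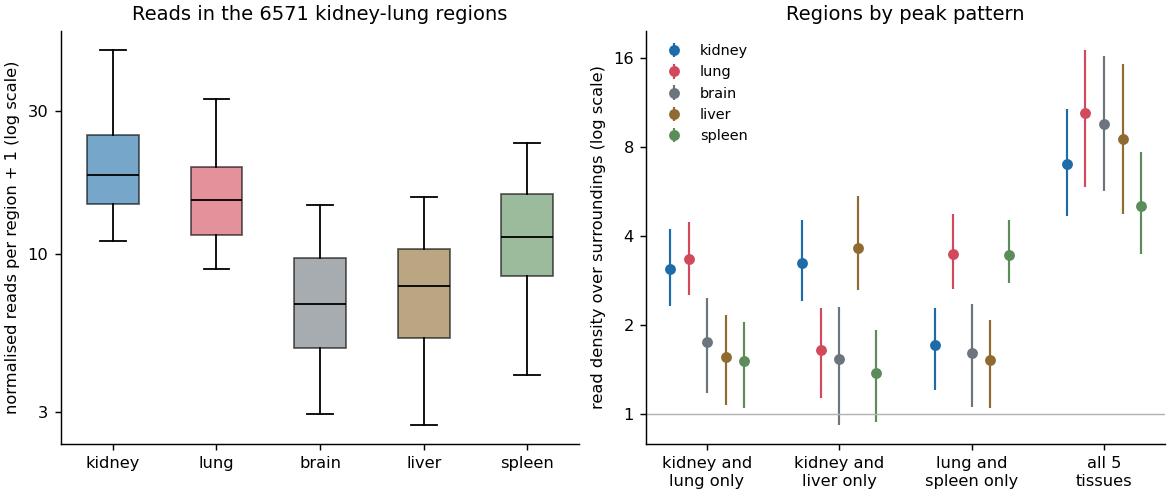
Left, normalised reads plus 1 in the kidney-lung regions on a log axis (line, median; box, quartiles; whiskers, 5th and 95th percentiles), and right, the density over the surroundings by peak pattern on a log axis (point, median; bar, quartiles). Kidney and lung sit highest in the kidney-lung regions, with median reads of 17.4 and 14.1 and median densities of 3.09-fold and 3.34-fold, and their distributions overlap those of brain, liver and spleen.

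A strong contrast with the other tissues was found in few kidney-lung regions. With at least 20 reads in each of kidney and lung, 1331 of them could be assessed, of 20399 regions in all. Both tissues were at least 2-fold over each of brain, liver and spleen in 323 (24.3%), in 245 places, against 494 of all regions (2.42%). At 4-fold the number was 29 (2.18%), in 28 places, against 41 of all regions (0.201%). The pattern itself was chosen on these reads, so nothing is read from the excess. The remaining 4-fold regions had a peak in brain, kidney and lung in 7 cases, in kidney alone in 3 and in all tissues but spleen in 2. With total reads, 636 kidney-lung regions (47.8%) passed 2-fold, against 900 of all regions (4.41%), and 83 (6.24%) passed 4-fold, against 104 of all (0.510%). With spleen left out, 124 passed 4-fold over brain and liver. That call is looser for every region and no count of all regions is at hand for it, so the rise is not read.

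The 29 regions held 23 to 156 kidney reads (median 42) and 22 to 76 lung reads (median 29), against 1 to 9 in brain (median 4), 0 to 10 in liver (median 6) and 0 to 8 in spleen (median 3). That kidney and lung lie apart from the others here is fixed by the fold that chose these 29. Lung was the lower of the pair in 21, and spleen was the next tissue in 18, liver in 7 and brain in 4. Spleen's place here turns on the scaling, as its median count before scaling was the lowest of the 3. With total reads, brain or liver was the next tissue in most of the 10 leading regions below. No count with total reads is at hand for the 29. Even here the precision was low: the interval of the fold stayed above 2 in 5 regions and above 4 in 0. The same 4-fold call, made for each pattern of 2 tissues, took shares of 0.536% (brain and lung) to 17.6% (kidney and liver, 402 of 2287 regions) in the other 9, of which 4 lay below the 2.18% of the kidney-lung regions. With total reads the kidney-lung share was 6.24%, and 2 of the other 9 lay above it, kidney and liver with 17.4% and lung and spleen with 9.66%.

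The 10 leading regions by fold, with at least 30 reads in each of kidney and lung and 1 region per place, began on chromosome 10. Its leader, 931 bp between 85768491 and 85769421, carried 126 reads in kidney and 76 in lung, against 7 in brain, 8 in liver and 5 in spleen. Kidney and lung stood far from the others, and the lower of the pair, lung, was 8.996-fold over spleen (interval 3.69 to 28.5). A second region 706 bp wide, between 85736236 and 85736941 of chromosome 10, carried 34 reads in kidney and 32 in lung, with 4 in brain, 4 in liver and 3 in spleen. Its kidney and lung levels were nearly equal (kidney 1.10-fold over lung, 0.661 to 1.85, or 0.836-fold with total reads), and lung was 6.31-fold over spleen (1.97 to 32.2). The stretch 85781771 to 85782691 of the same chromosome had 112 reads in kidney and 65 in lung, then 5 in brain, 7 in liver and 8 in spleen. There lung was 4.81-fold over spleen (2.30 to 11.6), or 9.95-fold with total reads. This stretch lies inside a place of 41.3 kb described below, and the leader lies just outside that place. The 1 kb bins between the leader and the start of the place held 129 to 145 normalised reads in kidney. Those between the leader and this stretch ranged from 59.6 to 150. The 5 kb rule thus splits a continuously covered stretch, and these 2 regions are not independent observations.

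Chromosome 11 gave 3 of the 10. Between 96131806 and 96132636 there were 75 reads in kidney and 32 in lung, against 1 in brain, 5 in liver and 2 in spleen. The other tissues were near the floor of 3 reads, and no interval was computed because spleen, set to that floor, scaled highest among them. Between 85657556 and 85658156 kidney had 42 reads and lung 68, against 9 in brain, 9 in liver and 6 in spleen. This was the single region of these 10 in which lung was above kidney, although with total reads it was 1 of 4, and kidney was 4.301-fold over spleen (1.82 to 12.4). Between 3816656 and 3817256 kidney had 51 reads and lung 36, against 3 in brain, 9 in liver and 4 in spleen. Liver was the next tissue, and lung was 4.12-fold over it (1.95 to 9.74).

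The remaining 4 lay on chromosomes 7, 4 and 1. On chromosome 7, 135068461 to 135068981 held 117 kidney and 33 lung reads, against 6 in brain, 6 in liver and 4 in spleen. Kidney was 3.68-fold over lung there, the most uneven pair of the 10, and lung was 4.88-fold over spleen (1.74 to 19.0). Also on chromosome 7, 138698996 to 138699566 held 46 kidney and 41 lung reads, against 9 in brain, 1 in liver and 6 in spleen, with both tissues over 14-fold above their surroundings, at 14.5-fold in kidney and 14.03-fold in lung. The lower, lung, was 4.04-fold over spleen (1.71 to 11.7). On chromosome 4, 155433526 to 155434216 held 92 kidney and 55 lung reads, against 4 in brain, 8 in liver and 7 in spleen, and lung was 4.65-fold over spleen (2.11 to 12.1). With total reads liver was the next tissue there, and lung was 9.485-fold over it. On chromosome 1, 73963121 to 73963676 held 43 kidney and 39 lung reads, against 8 in brain, 5 in liver and 2 in spleen. In this last region brain was the next tissue, and lung was 4.44-fold over it (2.05 to 11.004). Brain stood 4.73-fold over its own surroundings there, more than kidney at 3.30-fold. The brain value rests on only 8 reads, against 43 in kidney. Each fold also depends on the level of that library's own surroundings, so these values do not rank the peaks.

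**Figure D3:**
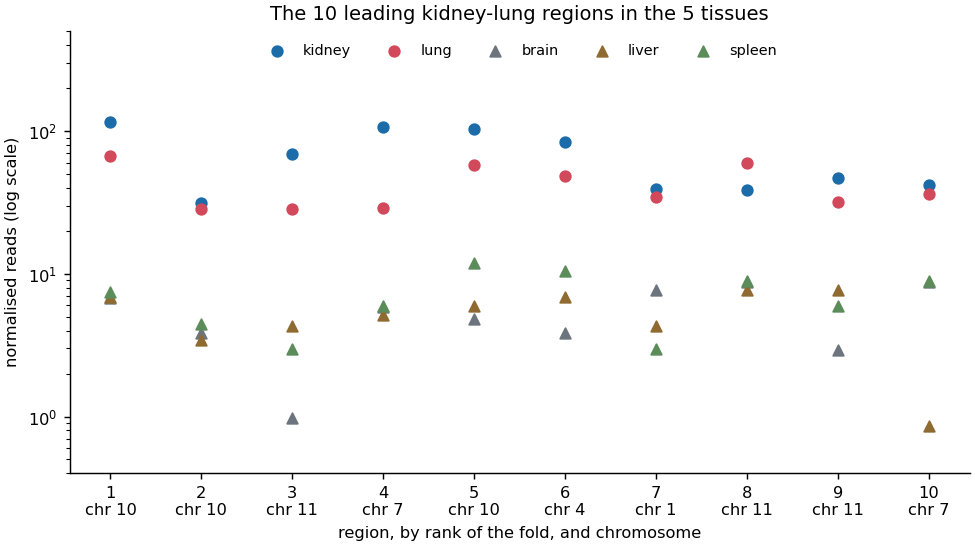
Normalised reads of each library in the 10 leading kidney-lung regions, ordered by the fold of the lower of kidney and lung over the highest other tissue, on a log axis. Kidney and lung lie above the other 3 libraries in all 10, with folds of 8.996 for the first and 4.04 for the tenth.

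The regions with the most reads in both tissues showed smaller contrasts. On chromosome 8, 2801 bp between 34901791 and 34904591 held 114 reads in kidney and 109 in lung, against 11 in brain, 46 in liver and 33 in spleen. On chromosome 17, 6950856 to 6953606 held 130 in kidney and 103 in lung, against 12 in brain, 23 in liver and 40 in spleen. On chromosome 12, 74144326 to 74147136 held 124 in kidney and 81 in lung, against 21 in brain, 23 in liver and 23 in spleen. These were among the widest kidney-lung regions, and the lower of the pair was 1.95-fold, 1.52-fold and 2.08-fold over spleen in that order. With total reads the fold over the next tissue was 2.69 on chromosome 8, 3.13 on chromosome 17 and 3.66 on chromosome 12. On chromosome 10, 85801721 to 85803321 held 299 in kidney and 81 in lung, against 21 in brain, 30 in liver and 20 in spleen, with lung 2.40-fold over spleen (1.46 to 4.13), or 3.66-fold over brain with total reads. The fifth by this measure was the leading region on chromosome 10 described above.

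Within the kidney-lung regions the balance of the 2 tissues leaned to kidney. In the 2658 regions with at least 40 reads of both together, the median log2 of kidney over lung was 0.47 (quartiles -0.11 and 1.05), and kidney was higher in 1853 (69.7%). Kidney was at least 2-fold over lung in 745 (28.0%), against 13.9% of all regions with peaks in both, and lung at least 2-fold over kidney in 113 (4.25%), against 6.14%. The 21263 regions with peaks in both and in a further tissue had a median log2 of 0.16. This lean rests largely on the scaling: total reads shift every log2 by -0.40, the median becomes 0.069, and kidney is higher in 53.4%. Under that scaling kidney is at least 2-fold over lung in 397 regions (14.9%), against 5.92% of all with both peaks, and lung over kidney in 285 (10.7%), against 14.8%. The difference of 0.31 between the medians of kidney-lung regions and of the rest does not depend on the scaling. It does hold for the minimum of 40 reads only, which kept 2658 of the 6571 kidney-lung regions. With a minimum of 20 reads their median was 0.35, and no such median of the rest is at hand.

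Regions at the 2 ends of this balance carried a listed peak in the weaker tissue by the rule, so its height over the surroundings is a description. The 153 regions with kidney at least 4-fold over lung had median counts of 70 in kidney, 14 in lung, 5 in brain, 7 in liver and 7 in spleen. Their density was 6.92-fold over the surroundings in kidney and 3.16-fold in lung, against 1.54-fold in brain, 1.42-fold in liver and 1.44-fold in spleen. The 113 regions with lung at least 2-fold over kidney had medians of 16 in kidney, 41 in lung, 8 in brain, 8 in liver and 8 in spleen. They stood 3.20-fold over the surroundings in kidney and 8.41-fold in lung, against 2.31-fold in brain, 1.76-fold in liver and 1.76-fold in spleen.

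The most kidney-weighted region, 73799501 to 73800041 of chromosome 13, had 156 reads in kidney and 12 in lung, against 1 in brain, 3 in liver and 6 in spleen. Kidney was 13.5-fold over lung (7.51 to 26.7), and lung could not be separated from spleen, at 1.18-fold with an interval of 0.411 to 3.84, or 2.45-fold with total reads. The next were 73817631 to 73818251 of chromosome 13, with 132 reads in kidney and 11 in lung (12.5-fold), and 21660451 to 21660966 of chromosome 14, with 75 in kidney and 7 in lung (11.1-fold). Brain, liver and spleen held 1, 2 and 3 reads in the first of these and 1, 5 and 2 in the second.

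At the other end, 101100386 to 101101081 of chromosome 15 had 16 reads in kidney and 221 in lung, against 12 in brain, 6 in liver and 5 in spleen. Lung was 13.3-fold over kidney (8.01 to 23.7), and kidney was 1.26-fold over brain, with an interval of 0.560 to 2.92 that includes no difference, and 0.995-fold with total reads. Between 117942416 and 117942956 of chromosome 2 there were 9 reads in kidney and 113 in lung, against 8 in brain, 4 in liver and 6 in spleen. Between 63797551 and 63798851 of chromosome 9 there were 22 in kidney and 213 in lung, against 16 in brain, 25 in liver and 8 in spleen. In both, another tissue had a higher normalised count than kidney, so the listed kidney peak did not go with a kidney level above all the tissues without one.

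**Figure D4:**
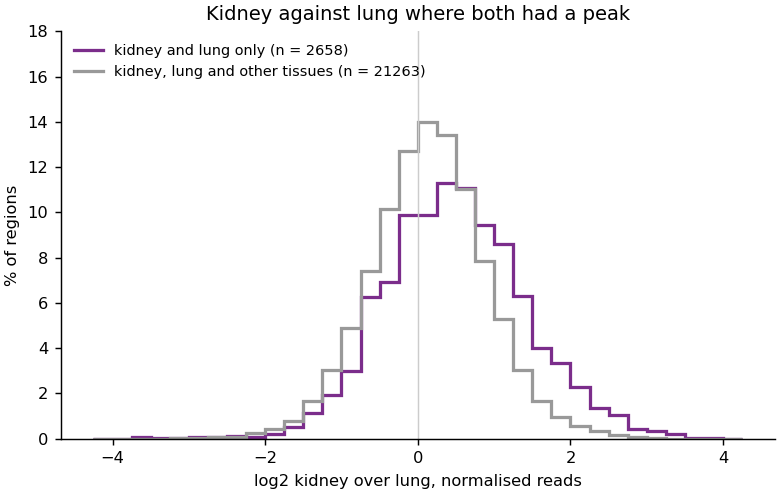
Distribution of log2 kidney over lung reads in kidney-lung regions and in other regions with peaks in both tissues, as a percentage of each set's regions with 40 reads or more. The kidney-lung regions are shifted to kidney, with a median of 0.47 against 0.16.

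Kidney-lung regions lay among other regions, seldom alone. Another region lay within 5 kb of 6057 of them (92.2%), a kidney peak elsewhere within 5 kb of 80.5% and a lung peak of 78.8%, against 52.2% for brain, 39.4% for liver and 31.5% for spleen. These shares move with the lengths of the peak lists, of which those of spleen and liver were the shortest, and the part of the lengths was not tested. A kidney-only region was near 48.7%, a lung-only region near 42.5% and another kidney-lung region near 41.3%. A region with peaks in all 5 tissues was near 740 (11.3%). A window of brain, liver or spleen lay within 500 bp of the edge of 1641 regions (24.97%), and 2082 (31.7%) had none within 5 kb. The share with any region within 5 kb was 94.8% for kidney-liver regions, 85.4% for lung-spleen regions and 80.7% for regions with peaks in all 5.

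Joined across gaps of up to 5 kb, the kidney-lung regions formed 4789 places. Of these, 3859 held a single region, 930 held at least 2 and 66 at least 6, and 2712 regions (41.3%) shared a place with another. For kidney and liver only this share was 49.2%, with up to 42 regions in a place, against 33 here. It was 36.3% for brain and lung only, 24.5% for lung and spleen only and 5.303% for kidney and spleen only. Among regions of a single tissue it was 67.9% for brain, 59.95% for kidney and 20.1% for spleen. Sharing a place is thus not particular to kidney-lung regions, and the part of the number of regions per pattern was not tested. Regions of a place are not independent observations. Larger places are by their definition those with more kidney and lung peaks close by, so the density around their regions is a description. Density 1 to 5 kb away and outside every region was 1.21-fold over the wider surroundings in kidney for single regions, 1.38-fold in places of 2, 1.67-fold in places of 3 to 5 and 1.83-fold in places of 6 or more. Lung followed the same order, with 1.22-fold, 1.40-fold, 1.63-fold and 1.66-fold. Brain kept to 1.14-fold to 1.195-fold, liver to 1.08-fold to 1.14-fold and spleen to 1.07-fold to 1.09-fold over the same sizes.

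Regions of a place also had like ratios of kidney to lung. In 382 places with at least 2 regions of 40 reads or more, holding 1135 regions, the SD of log2 kidney over lung was 0.51 within places and 0.91 between place means. The spread that counting error alone gives at these read numbers was 0.40 per region.

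The place with the most members ran over 73.7 kb of chromosome 16, from 45757501 to 45831226, and held 33 kidney-lung regions of 56 regions in all. Its kidney-lung regions summed to 878 reads in kidney and 626 in lung, against 167 in brain, 310 in liver and 219 in spleen. Kidney was higher than lung in 29 of the 33, 1.46-fold in sum (1.31 to 1.62), and lung was 1.69-fold over spleen (1.45 to 1.98). With total reads kidney was 1.10-fold over lung and the fold over the next tissue 2.79. Counted over the whole span, inside regions and between them, density was 2.50-fold over the surroundings in kidney and 2.66-fold in lung, against 0.891-fold in brain, 1.07-fold in liver and 1.17-fold in spleen.

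Chromosome 8 held a pair of large places close to each other. The first, from 34921586 to 34965941, had 26 kidney-lung regions with 654 reads in kidney and 505 in lung, against 107 in brain, 231 in liver and 134 in spleen. The second, from 34975086 to 35013491, had 19 with 487 in kidney and 427 in lung, against 98 in brain, 224 in liver and 133 in spleen, and 0 of its 29 regions had a peak in the other 3 tissues. In both, liver had more reads than brain or spleen before scaling. When gaps of up to 20 kb were joined, they fell into a stretch of 155 kb with 61 kidney-lung regions, the longest run by count, with 1694 reads in kidney and 1468 in lung, against 316 in brain, 697 in liver and 415 in spleen. Next by count, with 39 regions each, were the stretch around the place on chromosome 16 and one on chromosome 6 from 52108031 to 52213551. The one on chromosome 6 spanned 106 kb, with 1174 reads in kidney and 892 in lung, against 208 in brain, 238 in liver and 262 in spleen.

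Of the 8 places with the most regions, the highest levels were in one of 41.3 kb on chromosome 10, from 85774571 to 85815871, next to the leading region above. It holds the regions 85781771 to 85782691 and 85801721 to 85803321 named above. Its 19 kidney-lung regions summed to 1873 reads in kidney and 690 in lung, against 196 in brain, 142 in liver and 126 in spleen. Kidney was 2.82-fold over lung (2.58 to 3.08) and higher in 18 of 19, and lung was 3.21-fold over brain (2.73 to 3.78), the next tissue. The whole span was 13.0-fold over its surroundings in kidney and 6.40-fold in lung, against 2.87-fold in brain, 1.52-fold in liver and 1.22-fold in spleen. A similar weighting to kidney was found from 66761006 to 66789256 of chromosome 15, where 12 regions summed to 1012 reads in kidney and 278 in lung, against 105 in brain, 107 in liver and 88 in spleen. Kidney was 3.78-fold over lung there (3.31 to 4.33) and higher in all 12 regions.

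**Figure D5:**
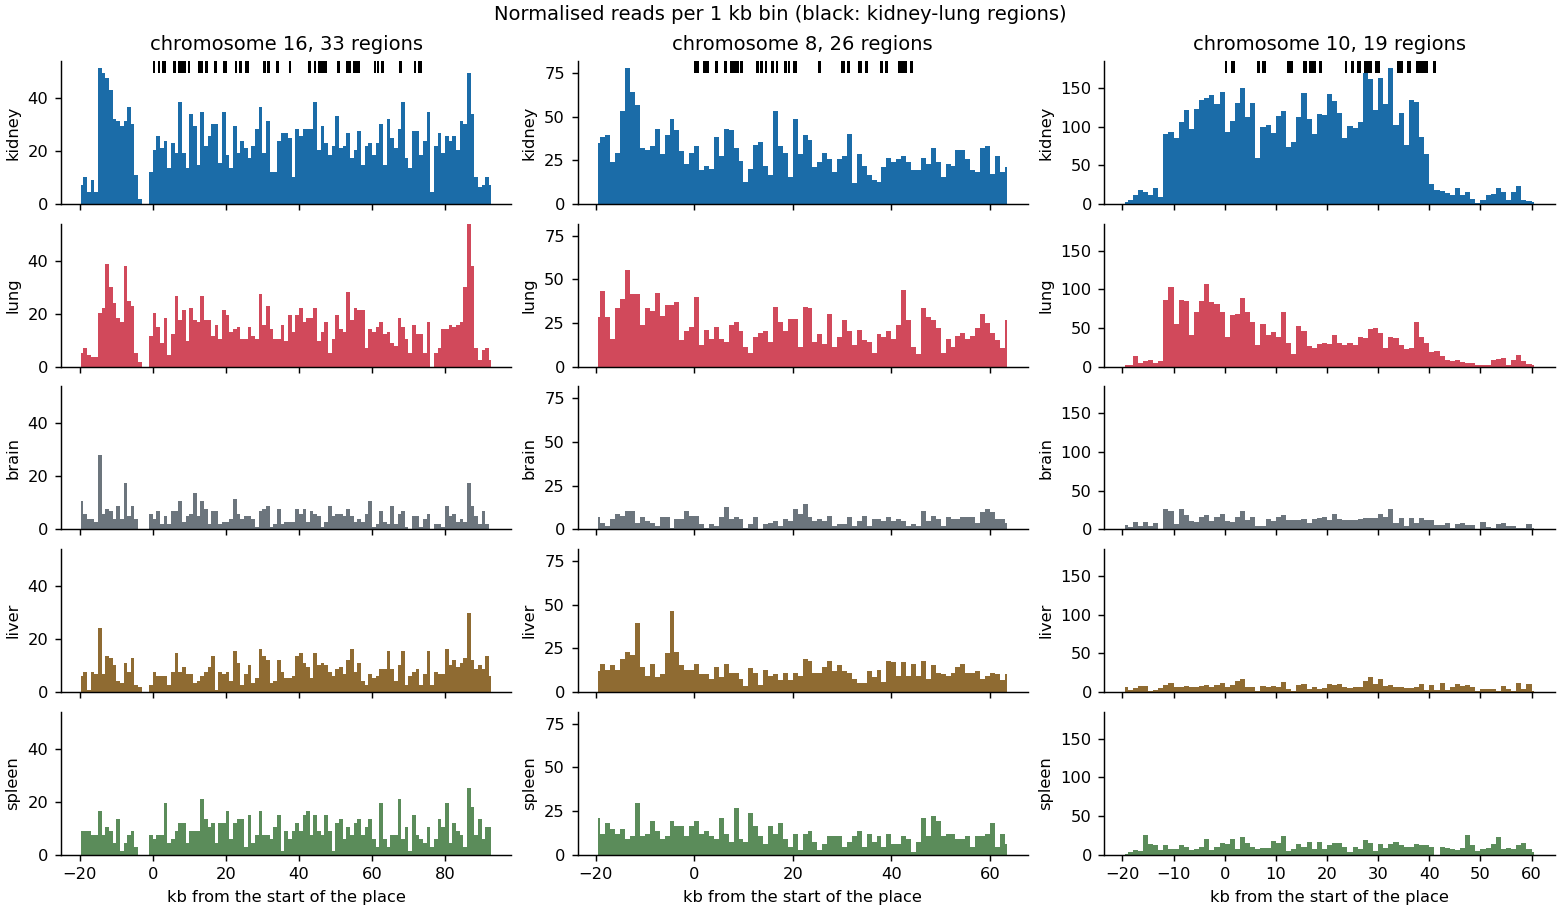
Normalised reads per 1 kb bin in each library across the 3 places with the most kidney-lung regions, which are marked in black, by distance from the start of the place. Kidney and lung reads cover the whole of each place, between the marked regions as well as in them, and the kidney density over the surroundings was 2.50-fold on chromosome 16, 1.52-fold on chromosome 8 and 13.0-fold on chromosome 10. These folds do not rank the levels: kidney held 23.8, 27.1 and 111 normalised reads per kb in that order. In the 20 kb before the place on chromosome 8, the kidney bins already held 22.9 to 77.9.

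The other 3 of these 8 places were closer to even between the 2 tissues. From 36037851 to 36062101 of chromosome 5, 15 regions summed to 469 reads in kidney and 372 in lung, against 104 in brain, 91 in liver and 130 in spleen. From 135289366 to 135319421 of chromosome 1, 14 regions summed to 287 in kidney and 281 in lung, against 89 in brain, 89 in liver and 93 in spleen. From 102241611 to 102272681 of chromosome 14, 14 regions summed to 282 in kidney and 239 in lung, against 66 in brain, 114 in liver and 41 in spleen. Kidney over lung was 1.31-fold on chromosome 5 (1.14 to 1.504), 1.06-fold on chromosome 1 (0.896 to 1.25) and 1.23-fold on chromosome 14 (1.03 to 1.46). On chromosome 5 lung was 1.69-fold over spleen, or 3.37-fold over the next tissue with total reads. With total reads it fell below 1 in these 3, at 0.992, 0.804 and 0.928, and in the second place on chromosome 8, at 0.897, against 1.18 in the main scaling.

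Along the genome the kidney-lung regions were unevenly spread. Chromosome 2 held the most, 514, and chromosome 8 held 479, or 5.07% of its regions against 3.52% overall. On chromosome 16 they were 4.56% of the regions, and on chromosome X 1.61%. Chromosome X had 795 regions with both a kidney and a lung peak. Kidney-lung regions made up 16.6% of these, against 20.3% in all. That share was 24.3% on chromosome 8 and 26.8% on chromosome 16, and it was below that of X on chromosomes 7, 11 and 19. A single stretch named above held 61 of the regions on chromosome 8, and another held 39 of the 348 on chromosome 16. On chromosome Y there were 0 among 74 regions.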

How the data were processed

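Per the submitters' processing notes, reads were aligned with Bowtie. No version, build, peak caller, threshold or control is given in the sources at hand. The authors deposited 1 list of aligned reads and 1 list of peak positions per tissue, with no counts and no scores. The deposited positions lie on a grid of 5 bp and reads are 34 to 36 bp long; neither file is a measured level, so all read counts were made here from the authors' deposited positions. Read 5′ ends were counted per merged region, and 4 to 15 lines per library of another length were dropped. The last deposited reads of chromosome 1, at 197195235, lie past the last gene of the GRCm38 table (195291439), so no gene or sequence of that table was used.

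Libraries were scaled by the median ratio to the geometric mean of 8222 regions, with factors set to a geometric mean of 1. Folds set counts under 3 to 3. Exact Clopper-Pearson intervals of 95% came from SciPy 1.17.1, with Python 3.11.15, NumPy 2.4.6, pandas 2.3.3 and Matplotlib 3.10.9. Scripts were tested on simulated data. Regions named were the 10 with the largest fold of the lower of kidney and lung over the highest other tissue (30 reads in each), the 5 with the most reads, the 3 most kidney-weighted and the 3 most lung-weighted (50 reads together), 1 per place, and the 8 places with the most regions. Members, lists and rules were chosen with earlier results of these data known. Added after seeing the data were the 20 kb stretches, all alternatives for local enrichment and for named regions and places, the comparison without spleen under total reads, the order of patterns with lists of equal length and the shares of 4-fold calls per pattern under total reads. Alternatives covered scaling, repeated reads, read position, depth, thresholds, window width and joining distance.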

Additional observations from a re-analysis of the deposited data

How the results depend on the processing

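The number of kidney-lung regions was 6571. It was 2395 when every peak list was thinned at random to the length of the shortest, and the places then numbered 2143 against 4789. The 2395 can include regions whose peaks in other tissues were thinned away. Regions at 4-fold or more over the other tissues numbered 29, against 83 with total reads, 102 with background subtracted, 98 at 3-fold, 323 at 2-fold and 3 with at least 50 reads. Without spleen there were 124, or 136 with total reads as well. Of all regions, 41 passed in the main setting, 104 with total reads, 122 at 3-fold and 494 at 2-fold. For the other settings no count of all regions is at hand. The median log2 of kidney over lung, 0.47, was 0.069 with total reads, 0.49 with repeated reads removed, 0.44 with background subtracted, 0.35 with a minimum of 20 reads and 0.35 with none. The share with another region near, 92.2% within 5 kb, was 83.4% within 2 kb and 96.1% within 10 kb. Kidney over lung turned below 1 with total reads in the second place on chromosome 8 (0.897) and in those on chromosomes 5 (0.992) and 14 (0.928). Other values under these settings numbered 121 that stayed within their interval, or within 10% for local enrichment, and 15 that moved further, among them the place on chromosome 1, at 0.804. Total reads shift every log2 of kidney over lung by the same -0.40, the place ratios named here included. Why the other values moved was not tested. Other windows of 100 and 500 bp gave 6834 and 4692 regions. No paired analysis was possible because each tissue has 1 library, and for the same reason no replicate could be left out. Depth limits single regions: at a median of 19 reads in kidney and 16 in lung, most folds are imprecise.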

Other observations

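Joined across 20 kb, 3 more stretches held over 20 kidney-lung regions each. The stretch from 102241611 to 102343831 of chromosome 14 includes the place named there and held 37, with 772 reads in kidney and 690 in lung, against 188 in brain, 291 in liver and 155 in spleen. From 154358091 to 154462601 of chromosome 1 there were 24, with 764 in kidney and 459 in lung, against 216 in brain, 281 in liver and 215 in spleen. From 118849486 to 118951056 of chromosome 9 there were 22, with 523 in kidney and 469 in lung, against 188 in brain, 155 in liver and 170 in spleen. Kidney over lung was 1.16-fold on chromosome 14, 1.73-fold on chromosome 1 and 1.16-fold on chromosome 9.

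Outside all regions, kidney and lung shared read positions at 1.09 times the median of the 10 pairs of libraries, within the range of the pairs, which ran to 0.881 for liver and spleen at the low end and 1.16 for brain and lung at the high end.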
